A study of Homo sapiens with 36 samples.

Results

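The comparison described here asks how far the response of HMC3 cells to 50 µM perfluorooctane sulfonate (PFOS) had changed 24 h after the compound was taken away. It was formed per gene as the log2 fold change of 50 µM PFOS over vehicle after recovery minus the log2 fold change of 50 µM PFOS over vehicle at the end of exposure, and is called the difference of effects. It uses 12 of the 18 RNA-seq libraries in a series of 36 libraries, 3 in each of 4 groups, and all genes that passed a filter on low counts, which were 9847 of 25344 gene symbols. A negative difference means that the gene stood lower against its vehicle after recovery than it did at 24 h.

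HMC3 is an immortalised human line derived from fetal brain microglia, and PFOS is a persistent fluorinated surfactant. The 50 µM recovery cells received 50 µM PFOS for 24 h, were changed to medium without PFOS and were harvested 24 h later. The vehicle recovery cells received vehicle and the same change of medium and wait. The 50 µM 24 h cells were harvested straight after 24 h in 50 µM PFOS, and the vehicle 24 h cells after 24 h in vehicle. The recovery cells had thus been in culture 24 h longer than the cells harvested at 24 h, within both the PFOS and the vehicle arm. The labels call the 3 libraries of a group biological replicates without saying whether they came from separate cultures, so a p-value measures the spread between these libraries. In bulk RNA, a change in the number of cells of one state cannot be told apart from a change in RNA per cell.

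Several pathways that report on the state of a cell recur in these data. In the integrated stress response, a short supply of amino acids or unfolded protein in the endoplasmic reticulum (ER) slows general translation while the transcription factor ATF4 is made, and ATF4 raises genes for amino acid synthesis, uptake and tRNA charging. The unfolded protein response raises ER chaperones such as HSPA5. When sterols are short, SREBP2 raises the enzymes of cholesterol synthesis, and when they are plentiful this program is low, while interferon-stimulated genes such as the IFIT family report on interferon and RNA-sensing signals.

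The 12 libraries held 755905 to 3982818 counts. Of 14 microglial markers, 10 had under 10 counts over the 12 libraries, among them P2RY12 with 4, PTPRC with 2 and ITGAM with 1. CD68 had 684 counts. The microglial markers summed to 271–341 CPM (counts scaled to the size of the library) in 50 µM recovery, 217–265 in vehicle recovery, 280–322 in 50 µM 24 h and 207–241 in vehicle 24 h cells. Mesenchymal markers, such as collagens and fibronectin, summed to 6250–13700 CPM in 50 µM recovery, 12800–17900 in vehicle recovery, 14100–19000 in 50 µM 24 h and 14500–16400 in vehicle 24 h cells. Most defining microglial genes were thus at or near 0, and the cells are called HMC3 throughout. Genes of other brain and vessel cell types were low, at no more than 78.8 CPM in sum for any of 4 lists. The 50 µM recovery libraries stood apart from the other 9. They correlated with each other at 0.849, 0.937 and 0.915, against 0.959–0.984 within the other groups. Ribosomal protein genes took 2.93, 7.53 and 5.00% of their counts, against 1.33–2.42% elsewhere, and the median SD of log2 CPM was 0.44, against 0.25 in vehicle recovery, 0.23 in 50 µM 24 h and 0.20 in vehicle 24 h cells.

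The difference of effects was called for 1878 of 9847 genes, or 19.1%, by edgeR's quasi-likelihood test at a Benjamini-Hochberg adjusted p under 0.05. It was positive for 1147 genes (11.6%) and negative for 731 (7.42%), and 1447 of the called genes differed at least 2-fold. The same contrast at 25 µM called 2 genes, both negative. The effect of 50 µM PFOS was called for 2800 genes (28.4%) after recovery, 1743 higher (17.7%) and 1057 lower (10.7%), and for 1848 (18.8%) at 24 h, 904 higher (9.18%) and 944 lower (9.59%). These counts rest partly on the shared estimate of spread and on single libraries. The 50 µM recovery libraries spread more than the other groups. With a voom trend per group the order of the effects turned round, with 1420 genes called after recovery and 3036 at 24 h. The difference was then called for 1418. Without 50 µM recovery replicate 1 the difference was called for 3314 genes, without vehicle 24 h replicate 2 for 1188 and without vehicle 24 h replicate 3 for 1211. Without 50 µM recovery replicate 2, 1600 genes were called after recovery. With upper-quartile scaling in place of TMM, 48.6% of the called differences were positive, against 61.1%, and 47.9% of the genes called after recovery were higher, against 62.2%. That scaling moved the median difference over all genes to -0.12, against 0.02.

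Most of what had changed at 24 h was no longer called after recovery. Of the 904 genes higher at 24 h, with a median log2 fold change of 0.98, 619 (68.5%) were not called after recovery, 234 (25.9%) were still higher and 51 (5.64%) had become lower, and their median after recovery was 0.14. Of the 944 genes lower at 24 h, with a median of -0.92, 650 (68.9%) were not called after recovery, 259 (27.4%) were still lower and 35 (3.71%) had become higher, with a median of -0.30. Without 50 µM recovery replicate 2, 78.7% of the risen and 79.6% of the fallen genes were not called after recovery, and without replicate 1, 55.4% and 56.7%. Without vehicle 24 h replicate 2, 541 genes rose and 598 fell at 24 h, of which 68.0% and 62.7% were not called after recovery. The 2 effects share no library. A lost call is not by itself a change, so the difference was tested as well. It was called for 322 of the 619 genes and 228 of the 650. The difference contains the 24 h effect by which these genes were picked, so these counts are not an independent check. A larger class lay outside the 24 h response. The difference was called positive for 772 genes that were higher after recovery and not called at 24 h, and negative for 222 that were lower after recovery and not called at 24 h. The remaining called genes were the 51 and 35 that crossed to the other side of vehicle, 26 higher and 33 lower at both times with a smaller effect after recovery, 14 with a larger one, and 175 with neither effect called.

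Leaving out single libraries moved these classes by different amounts. Without 50 µM recovery replicate 2, 474 of the 772 later risers were still called, against 771 without replicate 1 and 659 without replicate 3, and 487 and 505 were without 50 µM 24 h replicate 3 and vehicle 24 h replicate 3. Of the 222 later fallers, 109 and 118 were still called without vehicle 24 h replicates 2 and 3, 126 and 145 without vehicle recovery replicates 1 and 2, and 132 without 50 µM recovery replicate 2. Without 50 µM 24 h replicates 1, 2 and 3, 143, 145 and 134 of them were still called. Of the 322 and 228 reversed genes, 254 and 160 were still called without 50 µM recovery replicate 2, and the lowest counts over the 12 libraries left out in turn were 217 and 148, the 148 without vehicle 24 h replicate 2. Of the 175 genes with neither effect called, 19 were still called without that library. The difference was still called for all 51 and all 35 crossing genes whichever of the 12 libraries was left out. These genes were picked for called effects of opposite sign, so that call could hardly be lost and does not test the class. The numbers with both effects called in opposite directions did move. They were 25 and 21 without vehicle recovery replicate 1 and 40 and 16 without 50 µM 24 h replicate 1. Without 50 µM recovery replicate 1 they were 178 and 116.

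**Figure D1:**
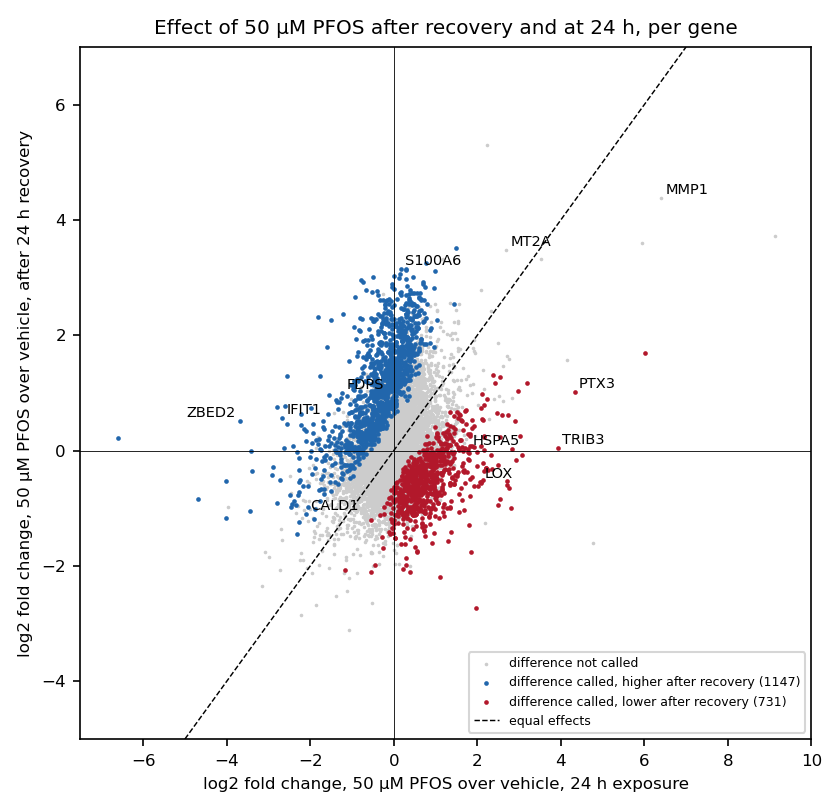
Log2 fold change of 50 µM PFOS over vehicle after 24 h recovery (vertical axis) against that at 24 h of exposure (horizontal axis) for 9847 genes, with the 1147 positive and 731 negative differences of effects in blue and red and equal effects on the dashed line. TRIB3, HSPA5 and LOX lie near 0 on the vertical axis and far right of 0 on the horizontal one, IFIT1 and ZBED2 lie far left, MMP1 and MT2A lie high on both axes, and S100A6 is high on the vertical axis alone.

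Many genes of the program that ATF4 drives were high at 24 h, and most were not called against vehicle after recovery. Of 14 tested ATF4-CHOP regulators and stress effectors, 11 rose at 24 h and none fell, and 3 were higher and 1 lower after recovery. The difference was called negative for 9 and positive for none. For this and each later list, the shares over all genes were 11.6% positive and 7.42% negative for the difference. They were 17.7% higher and 10.7% lower after recovery, and 9.18% higher and 9.59% lower at 24 h. The list's median log2 fold change was 0.00 after recovery and 1.28 at 24 h, and its median difference was -1.07, against 0.02 over all genes. In 50 µM recovery replicates 1, 2 and 3 its median log2 ratio to the mean vehicle was 0.13, -0.37 and 0.22. TRIB3, a pseudokinase induced by ATF4 and CHOP (chr20:380760-397559, RefSeq GRCh38.p14), stood at 90.7, 35.5 and 86.1 CPM in 50 µM recovery, 66.6, 52.9 and 82.4 in vehicle recovery, 852, 760 and 935 in 50 µM 24 h and 44.7, 58.0 and 61.5 in vehicle 24 h libraries. The exposed libraries lay above all others, and the recovery groups overlapped. Its log2 fold change was 0.05 ± 0.27 (SE) after recovery, adjusted p = 0.905, and 3.92 ± 0.26 at 24 h, so that the difference was -3.87 ± 0.37, adjusted p = 1.41e-06. CHAC1, which degrades glutathione, had a difference of -3.41 ± 0.45, adjusted p = 4.6e-05, and its vehicle level was 1.86 ± 0.32 log2 higher after recovery than at 24 h. PPP1R15A, the phosphatase subunit that ends the translation block, averaged 223 ± 88.9 CPM in 50 µM recovery, 229 ± 36.5 in vehicle recovery, 679 ± 43.8 in 50 µM 24 h and 196 ± 22.1 in vehicle 24 h libraries (SD, n = 3 each).

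The regulators themselves had not all returned to the vehicle level. ATF4 mRNA was still higher after recovery, by 0.57 ± 0.18 log2 (adjusted p = 0.0191), against 1.53 ± 0.18 at 24 h, and its difference was called at -0.96 ± 0.25. DDIT3, which encodes CHOP, stood at 88.4, 235 and 154 CPM in 50 µM recovery, 36.8, 51.6 and 41.6 in vehicle recovery, 158, 154 and 135 in 50 µM 24 h and 29.4, 23.8 and 27.1 in vehicle 24 h libraries. Both PFOS groups lay above both vehicle groups. Its log2 fold change was 1.86 ± 0.24 after recovery and 2.49 ± 0.26 at 24 h, and the difference of -0.63 (95% interval -1.35 to 0.10) was not called, adjusted p = 0.216. Without 50 µM recovery replicate 2 it was called at -1.06. ATF4, DDIT3 and the other genes of these lists that the selection rule did not name were picked after their values were seen.

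Genes of the metabolic arm of the same program were high at 24 h, and some lay below vehicle after recovery. Of 32 tested genes for amino acid synthesis, transport and tRNA charging, 21 rose at 24 h and none fell. After recovery none was higher and 11 were lower than in vehicle. Called differences were negative for 25 and positive for none, with a median of -1.41. The list's median log2 fold change was -0.41 after recovery and 0.88 at 24 h. ASNS, asparagine synthetase (chr7:97851677-97928441, RefSeq GRCh38.p14), stood at 65.1, 116 and 79.2 CPM in 50 µM recovery, 99.6, 114 and 163 in vehicle recovery, 352, 348 and 314 in 50 µM 24 h and 44.7, 49.7 and 58.6 in vehicle 24 h libraries. The recovery groups overlapped, while the exposed libraries lay far above their vehicle. Its difference was -3.23 ± 0.29, adjusted p = 4.97e-07, and part of it lay in the vehicle arm, which was 1.28 ± 0.20 log2 higher after recovery than at 24 h. SLC6A9, a glycine transporter, went past its vehicle level. It had 13.9, 5.47 and 6.95 CPM in 50 µM recovery, 12.3, 20.2 and 17.4 in vehicle recovery, 70.4, 83.3 and 80.05 in 50 µM 24 h and 9.41, 11.5 and 11.5 in vehicle 24 h libraries. One 50 µM recovery library lay among the vehicle recovery values and the other two lay under them, and the log2 fold change was -0.99 ± 0.35 after recovery (adjusted p = 0.0398) and 2.80 ± 0.26 at 24 h. The mitochondrial folate enzymes SHMT2 and ALDH1L2 had differences of -1.92 ± 0.21 and -3.14 ± 0.34, and the glycyl-tRNA synthetase GARS one of -1.72 ± 0.17.

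Of 3 tested secreted stress factors, the difference was called negative for 2. STC2, a stanniocalcin induced by ER stress, was lower than vehicle after recovery by -0.56 ± 0.15 log2 (adjusted p = 0.00873) and higher at 24 h by 2.10 ± 0.15. Its 50 µM recovery libraries had 193, 119 and 169 CPM, against 247, 225 and 236 in vehicle recovery, and its 50 µM 24 h libraries had 952, 898 and 992, against 234, 207 and 225 in vehicle 24 h. At each time the PFOS and vehicle libraries did not overlap, in opposite directions. SLC38A1, a glutamine transporter, was also on opposite sides of vehicle, at -0.46 ± 0.14 after recovery and 1.88 ± 0.14 at 24 h. ABCA1, a sterol exporter, had a difference of -2.51 ± 0.38, and its vehicle level was 1.16 ± 0.26 log2 higher after recovery than at 24 h.

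Many genes of the ER folding machinery rose at 24 h, and the median of the list was 0.09 log2 above vehicle after recovery, against 0.77 at 24 h. Of 25 tested genes for folding, degradation and translocation in the ER, 13 rose at 24 h and none fell, and 6 were higher and 3 lower after recovery. Negative differences were called for 13 and a positive one for 1, or for 3 without 50 µM recovery replicate 1. HSPA5, the main ER chaperone of the HSP70 family, stood at 1604, 1595 and 1512 CPM in 50 µM recovery, 1540, 1535 and 1552 in vehicle recovery, 6272, 6075 and 6404 in 50 µM 24 h and 1742, 1910 and 1793 in vehicle 24 h libraries. The 50 µM recovery libraries lay on both sides of their vehicle, while every exposed library lay far above the other 9. Its log2 fold change was 0.03 ± 0.11 after recovery (95% interval -0.20 to 0.25) and 1.78 ± 0.11 at 24 h, with a difference of -1.76 ± 0.15, adjusted p = 4.97e-07. HSP90B1, the ER form of HSP90, had a difference of -0.76 ± 0.20, adjusted p = 0.0127. HERPUD1, which works in ER-associated degradation, was still 0.42 ± 0.14 log2 above vehicle after recovery, against 1.93 ± 0.14 at 24 h. HYOU1 and PDIA4, which assist folding in the ER, were below vehicle after recovery, at -0.71 ± 0.19 and -0.49 ± 0.14, against 1.07 ± 0.19 and 0.77 ± 0.13 at 24 h. The single positive difference was SEC61B, a subunit of the translocation channel, at 2.26 ± 0.51. It had 75.6, 313 and 192 CPM in 50 µM recovery and 24.5–54.1 CPM in the other 9 libraries.

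The promoters of HSPA5 and HSP90B1 are printed because they hold the ER stress element, known as a binding site of ATF6, and they were picked after the matches were seen. Each is the 250 bases before the RefSeq gene start on the strand of the gene, read 5′ to 3′ from RefSeq GRCh38.p14, with matches to CCAAT followed by CCACG at 9 bases of any kind, on either strand, in capitals. HSPA5 lies on the minus strand (chr9:125241344-125241593) and HSP90B1 on the plus strand (chr12:103930160-103930409).
HSPA5: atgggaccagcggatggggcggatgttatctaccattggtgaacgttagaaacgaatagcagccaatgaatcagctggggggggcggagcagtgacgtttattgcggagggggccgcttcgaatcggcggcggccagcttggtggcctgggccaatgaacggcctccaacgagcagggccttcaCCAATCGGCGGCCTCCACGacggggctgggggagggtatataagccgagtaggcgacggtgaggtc
HSP90B1: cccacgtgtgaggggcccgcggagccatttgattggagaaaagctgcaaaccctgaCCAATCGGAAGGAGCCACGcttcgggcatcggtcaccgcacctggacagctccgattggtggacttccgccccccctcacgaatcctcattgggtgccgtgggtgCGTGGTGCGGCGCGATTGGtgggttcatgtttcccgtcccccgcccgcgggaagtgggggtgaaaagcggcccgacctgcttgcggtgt
The element occurred once in the HSPA5 and 2 times in the HSP90B1 promoter. It was found in 5 of the 20 list members with a promoter entry, against 0.0806% of 27305 RefSeq promoters of the same length. The ATF4 element searched, TGATGNAA, was found in 2 of 13 regulators and 1 of 15 amino acid genes with an entry, against 3.19% of all promoters, and TRIB3 and SLC6A9 held none in this window.

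Genes of cholesterol synthesis moved the other way. Of 27 tested genes for cholesterol synthesis, uptake and control, 23 fell and 1 rose at 24 h, and 6 were lower and 5 higher after recovery. The difference was called positive for 18 and negative for 1, against 11.6% and 7.42% of all genes. The list's median log2 fold change was 0.00 after recovery and -1.23 at 24 h. HMGCS1, an early enzyme of the pathway, stood at 110, 233 and 197 CPM in 50 µM recovery, 177, 83.9 and 145 in vehicle recovery, 27.9, 25.95 and 43.3 in 50 µM 24 h and 161, 174 and 133 in vehicle 24 h libraries. The recovery groups overlapped and the exposed libraries lay under all others. Its difference was 2.65 ± 0.38, adjusted p = 0.000164. CYP51A1, the lanosterol demethylase, had a difference of 1.63 ± 0.20.

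Some enzymes of the pathway went above vehicle. FDPS, farnesyl diphosphate synthase (chr1:155308866-155320665, RefSeq GRCh38.p14), stood at 832, 1765 and 1395 CPM in 50 µM recovery, 630, 742 and 628 in vehicle recovery, 243, 281 and 249 in 50 µM 24 h and 576, 579 and 654 in vehicle 24 h libraries. The PFOS libraries lay above vehicle after recovery and below it at 24 h without overlap. Its log2 fold change was 1.00 ± 0.18 after recovery (adjusted p = 0.000412) and -1.23 ± 0.19 at 24 h, with a difference of 2.22 ± 0.26, adjusted p = 1.6e-05. ACAT2, which condenses acetyl-CoA at the start of the pathway, was at 0.64 ± 0.15 after recovery and -1.58 ± 0.16 at 24 h. The 1 negative call was NPC1, which moves sterol out of lysosomes, with a difference of -1.82 ± 0.27. ACSS2, which makes acetyl-CoA from acetate, had a difference of 2.28 ± 0.28. It was the single call among 14 tested genes of fatty acid synthesis and desaturation, a share not above the 11.6% of all genes called positive. The positive calls of that list were 4 without 50 µM recovery replicate 2, without 50 µM recovery replicate 1 or vehicle recovery replicate 3 they were 2, and with quality weights they were 3 beside 1 negative call. Of those 14 genes, 8 fell and 1 rose at 24 h, and 4 were lower and 1 higher after recovery. The sterol element searched, TCACNCCAC, was found in 1 of 20 list members with an entry, against 0.875% of all promoters.

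**Figure D2:**
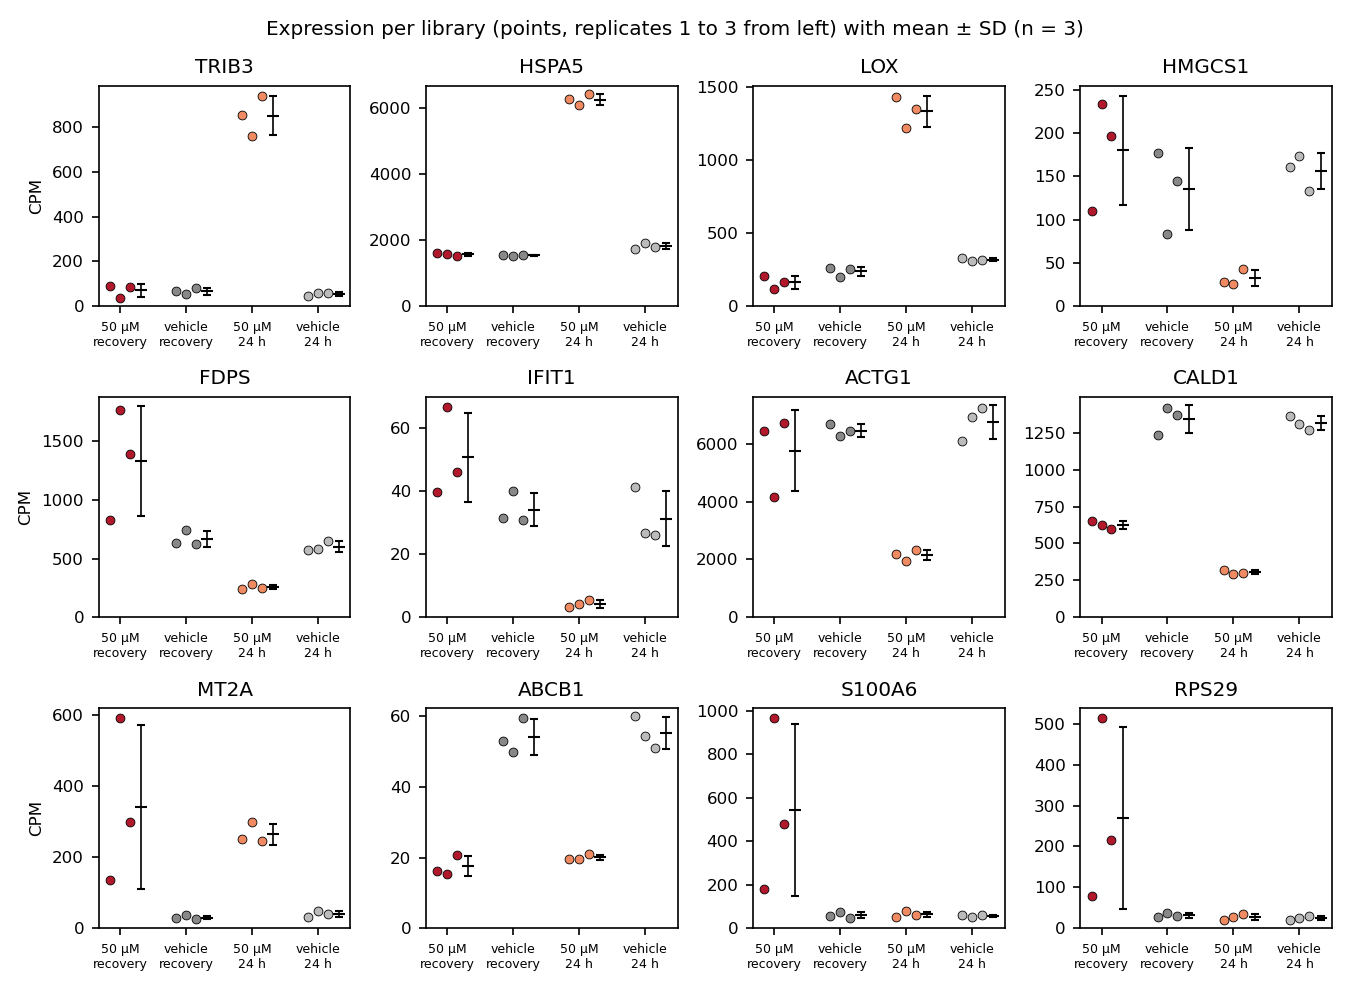
Expression in CPM of 12 genes in each of the 12 libraries, grouped as 50 µM recovery, vehicle recovery, 50 µM 24 h and vehicle 24 h, with the mean and SD of 3 libraries beside the points. The 50 µM 24 h points stand apart for TRIB3, HSPA5, LOX, HMGCS1, FDPS, IFIT1, ACTG1 and CALD1, both PFOS groups stand apart from vehicle for MT2A and ABCB1, and the 50 µM recovery points are high and spread for S100A6 and RPS29.

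Some interferon-stimulated genes were lower than vehicle at 24 h and some were higher after recovery, with IFIT2 in both sets. Of 15 tested genes, 6 fell and none rose at 24 h, and 6 were higher and 2 lower after recovery. The difference was called positive for 9 and negative for none, and negative for 3 without 50 µM recovery replicate 1. With counts thinned to equal depth it was called for 4, and without 50 µM recovery replicate 2 for 6. IFIT1, which binds foreign RNA, stood at 39.5, 66.5 and 45.8 CPM in 50 µM recovery, 31.4, 40.1 and 30.7 in vehicle recovery, 3.10, 4.33 and 5.61 in 50 µM 24 h and 41.2, 26.7 and 25.9 in vehicle 24 h libraries. The exposed libraries lay well under the other 9, and the recovery groups overlapped in 1 library each. Its log2 fold change was 0.57 ± 0.24 after recovery (adjusted p = 0.0752) and -2.67 ± 0.34 at 24 h, and its difference was 3.24 ± 0.42, adjusted p = 4.09e-05. ISG15, a ubiquitin-like modifier, differed on the other side of exposure. It had 62.8, 160 and 115 CPM in 50 µM recovery, 23.0, 37.7 and 16.5 in vehicle recovery, 13.5, 7.57 and 7.65 in 50 µM 24 h and 16.5, 15.5 and 17.7 in vehicle 24 h libraries. It rose by 2.09 ± 0.29 log2 after recovery, while the 24 h value of -0.84 ± 0.41 was not called, adjusted p = 0.162. IFIT2 and IFIT3 were above vehicle after recovery, at 0.85 ± 0.24 and 1.27 ± 0.27, against -1.36 ± 0.28 and -0.78 ± 0.29 at 24 h, the last not called. OAS1, an RNA sensor, had 2 counts in all in the exposed libraries, so its difference of 3.86 ± 0.95 rests on few reads and was 6.97 without 50 µM 24 h replicate 3.

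The promoters of IFIT1 and ISG15 are printed for the interferon-stimulated response element and were picked after the matches were seen. Matches to GAAA repeated after 2 bases of any kind, on either strand, are in capitals. IFIT1 (chr10:89392373-89392622) and ISG15 (chr1:1013247-1013496) both lie on the plus strand of RefSeq GRCh38.p14.
IFIT1: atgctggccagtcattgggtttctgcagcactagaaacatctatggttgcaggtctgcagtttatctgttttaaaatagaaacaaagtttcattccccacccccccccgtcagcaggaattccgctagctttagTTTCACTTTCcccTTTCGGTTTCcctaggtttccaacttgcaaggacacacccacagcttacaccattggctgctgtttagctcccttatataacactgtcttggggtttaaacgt
ISG15: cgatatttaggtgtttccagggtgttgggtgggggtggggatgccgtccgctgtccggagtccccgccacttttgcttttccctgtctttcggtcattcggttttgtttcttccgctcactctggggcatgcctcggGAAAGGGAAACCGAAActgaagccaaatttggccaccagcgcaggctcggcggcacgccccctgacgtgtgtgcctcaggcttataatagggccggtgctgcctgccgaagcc
IFIT1 held 2 matches, both on the opposite strand, and ISG15 2 that overlap. The element was found in 6 of the 10 interferon genes with a promoter entry, against 3.07% of 27305 promoters, and OAS1 and HMGCS1 held none of the elements searched for their lists.

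Actin and contractile genes came part of the way back in 50 µM recovery replicates 1 and 3, and as a list little in replicate 2. The list's median log2 ratio to the mean vehicle was -0.49, -1.35 and -0.44 in 50 µM recovery replicates 1, 2 and 3. In the 50 µM 24 h libraries it was -1.35, -1.45 and -1.37. Of 17 tested, 14 fell and none rose at 24 h, and 9 were lower and 2 higher after recovery. Positive differences were called for 11 and negative ones for none, with 7 positive in a fit to the 12 libraries alone. ACTG1, cytoplasmic gamma-actin (chr17:81509971-81512799, RefSeq GRCh38.p14), stood at 6428, 4153 and 6724 CPM in 50 µM recovery, 6683, 6253 and 6438 in vehicle recovery, 2186, 1958 and 2312 in 50 µM 24 h and 6101, 6935 and 7242 in vehicle 24 h libraries. The recovery groups overlapped except for the 4153 CPM of replicate 2. Its difference was 1.49 ± 0.22, adjusted p = 0.000155. CALD1, caldesmon, stopped between: 650, 628 and 599 CPM in 50 µM recovery, 1233, 1414 and 1373 in vehicle recovery, 321, 295 and 302 in 50 µM 24 h and 1363, 1312 and 1268 in vehicle 24 h libraries. No PFOS library overlapped its vehicle at either time, and the log2 fold change was -1.10 ± 0.11 after recovery and -2.10 ± 0.12 at 24 h. The tropomyosins TPM1 and TPM2 had differences of 1.26 ± 0.20 and 1.46 ± 0.27. The smooth-muscle actin ACTG2 was no closer to vehicle. It had 5.81, 6.38 and 1.39 CPM in 50 µM recovery, 30.6, 39.0 and 22.0 in vehicle recovery, 9.31, 13.0 and 8.67 in 50 µM 24 h and 42.3, 32.8 and 36.5 in vehicle 24 h libraries, and its difference of -0.81 (95% interval -2.005 to 0.39) was not called. Reads of near-identical actins could have been split between them in counting.

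Mitosis genes were low at 24 h, with 17 of 24 fallen and none risen, and 9 lower and 3 higher after recovery. Called differences were positive for 9 and negative for none, and for 5 either in a fit to the 12 libraries alone or after thinning to equal depth. ANLN, an actin-binding protein of the cleavage furrow, averaged 421 ± 38.5 CPM in 50 µM recovery, 617 ± 66.9 in vehicle recovery, 247 ± 6.73 in 50 µM 24 h and 714 ± 29.9 in vehicle 24 h libraries (SD, n = 3 each). Its difference was 0.98 ± 0.17, adjusted p = 0.00104. The kinase AURKA and the cyclin CCNB2 were near vehicle after recovery, at -0.12 ± 0.12 and 0.17 ± 0.15, against -0.97 ± 0.12 and -0.81 ± 0.15 at 24 h. MKI67, a marker of cycling cells, was lower at both times, by -0.82 after recovery and -0.80 at 24 h, with a difference of -0.02 ± 0.28. Of 29 replication genes, 8 fell and none rose at 24 h, and the difference was called positive for 7 and negative for none, and for 4 without 50 µM 24 h replicate 3 or with upper-quartile scaling.

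The genes with the most positive difference by the selection rule included ZBED2, a zinc-finger protein, at 4.20 ± 0.56. It had 41.9, 25.5 and 25.0 CPM in 50 µM recovery, 23.7, 16.2 and 26.1 in vehicle recovery, 3.10, 0 and 2.55 in 50 µM 24 h and 29.4, 30.3 and 23.6 in vehicle 24 h libraries. The exposed libraries, with 8 counts in all, lay under the other 9. ITGB8, an integrin chain that activates latent TGF-beta, averaged 32.9 ± 3.26 CPM in 50 µM recovery, 39.5 ± 7.16 in vehicle recovery, 4.01 ± 0.394 in 50 µM 24 h and 30.0 ± 5.22 in vehicle 24 h libraries (SD, n = 3 each), with a difference of 2.61 ± 0.40. Among the most negative, NDRG1, a gene known to respond to hypoxia, had 1 count over the 50 µM recovery libraries and a difference of -4.71 ± 1.11, which was -7.48 without 50 µM recovery replicate 3. LMO4, a LIM-domain cofactor, had a difference of -3.44 ± 0.61.

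Genes that shape the matrix around the cell were among the reversed rises. LOX, which crosslinks collagen and elastin (chr5:122063195-122078259, RefSeq GRCh38.p14), stood at 208, 120 and 167 CPM in 50 µM recovery, 261, 203 and 254 in vehicle recovery, 1434, 1222 and 1348 in 50 µM 24 h and 329, 309 and 318 in vehicle 24 h libraries. One 50 µM recovery library lay just inside the vehicle recovery values. Its log2 fold change was -0.54 ± 0.17 after recovery (adjusted p = 0.0184) and 2.07 ± 0.16 at 24 h, and its difference was -2.61 ± 0.23, adjusted p = 4.97e-07. PTX3, a long pentraxin of innate immunity, stood at 20.9, 31.9 and 12.5 CPM in 50 µM recovery, 11.5, 11.5 and 10.5 in vehicle recovery, 223, 210 and 265 in 50 µM 24 h and 5.88, 10.8 and 14.4 in vehicle 24 h libraries. It was still 1.01 ± 0.30 log2 higher after recovery, against 4.34 ± 0.25 at 24 h. PLAUR, the urokinase receptor, and SERPINE2, a protease inhibitor, were likewise still higher after recovery, with negative differences, at 1.17 ± 0.18 and 0.55 ± 0.13 after recovery, against 2.43 ± 0.17 and 2.12 ± 0.13 at 24 h. Over the 22 tested genes of matrix crosslinking and proteolysis the difference was called negative for 6 and positive for 1, against 7.42% and 11.6% of all genes. The negative count was 12 without 50 µM recovery replicate 1 and 11 with upper-quartile scaling.

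Of 8 tested inflammatory genes, 4 rose and none fell at 24 h and 3 were higher after recovery. Negative differences were called for 2, PTX3 and TLR4. TLR4, a receptor for bacterial lipopolysaccharide, was at -1.55 and lost its call without 50 µM recovery replicate 2, vehicle recovery replicate 2, 50 µM 24 h replicate 1 or vehicle 24 h replicate 3. The inflammatory list had a median log2 fold change of 0.67 after recovery and 1.03 at 24 h. Of 11 feedback genes of MAP kinase signalling, 6 rose and none fell at 24 h and 1 was higher and 1 lower after recovery, with a median of -0.08 after recovery and 0.93 at 24 h. The difference was called negative for 5, and for 3 in a fit to the 12 libraries alone. SPRY4, an inhibitor of receptor tyrosine kinase signalling, had a difference of -2.59 ± 0.50 and DUSP6, an ERK phosphatase, one of -1.08 ± 0.24. PHLDA1 was still 0.78 ± 0.28 log2 higher after recovery, against 2.16 ± 0.25 at 24 h. Of 11 tested integrin subunits, ITGA11, a collagen receptor chain, was the 1 negative call and ITGB8 the 1 positive call. ITGA11 was at -1.16 ± 0.29 after recovery and 1.08 ± 0.23 at 24 h. Calls for 1 of 11 each way are near the 7.42% and 11.6% over all genes. The negative calls were 6 without 50 µM recovery replicate 1, and without 50 µM recovery replicate 3, vehicle recovery replicate 3 or vehicle 24 h replicate 1 they were 2. With no filter on low counts they were 4. Among 23 genes of TGF-beta signalling, matricellular proteins and YAP targets the difference was called negative for 7 and positive for 1. The negative count was 2 without vehicle 24 h replicate 3, 3 without vehicle 24 h replicate 2, vehicle recovery replicate 1 or 50 µM 24 h replicate 1, and 4 without 50 µM recovery replicate 3 or 50 µM 24 h replicate 3.

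Oxidant-defence genes split. Of 19 tested NRF2 targets the difference was called positive for 5 and negative for 4, with 3 positive in a fit to the 12 libraries alone. TXNRD1, thioredoxin reductase, averaged 370 ± 19.1 CPM in 50 µM recovery, 341 ± 61.8 in vehicle recovery, 1023 ± 84.2 in 50 µM 24 h and 360 ± 47.6 in vehicle 24 h libraries (SD, n = 3 each), with a difference of -1.39 ± 0.21. The cystine transporter SLC7A11, also in the amino acid list, had a difference of -2.39 ± 0.47. PRDX1, a peroxidase, and GSR, glutathione reductase, had positive differences of 1.56 ± 0.33 and 1.77 ± 0.42. NQO1 was higher at both times, by 2.01 ± 0.17 after recovery and 1.35 ± 0.17 at 24 h, with a difference of 0.65 that was not called, adjusted p = 0.0544. It was called at 0.79 without 50 µM recovery replicate 1 and at 0.79 without vehicle recovery replicate 2. The ferritin chains FTL and FTH1 also rose at both times, with positive differences of 1.11 and 0.83. Of 26 lysosome and autophagy genes the difference was called negative for 7 and positive for 1, with a negative count of 4 without vehicle recovery replicate 1, 50 µM 24 h replicate 1, vehicle 24 h replicate 2 or vehicle 24 h replicate 3 and a positive count of 4 without 50 µM recovery replicate 1. WIPI1 and MAP1LC3B, which act in autophagosome formation, had differences of -1.48 ± 0.20 and -1.08 ± 0.24. PLIN2, a lipid droplet coat protein, had one of -1.03 ± 0.28.

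**Figure D3:**
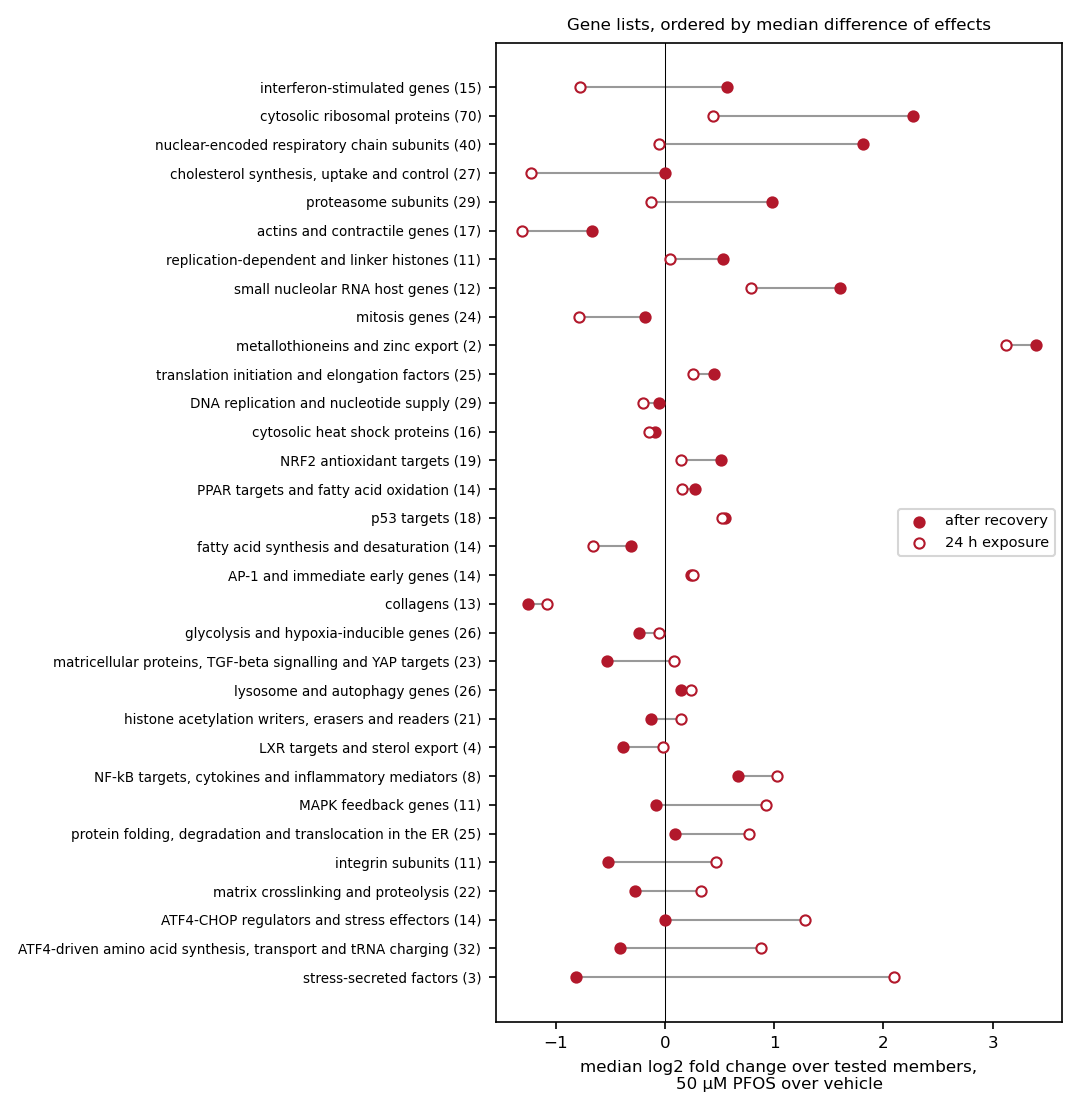
Median log2 fold change of 50 µM PFOS over vehicle for 32 gene lists, with the number of tested genes in brackets, filled points after recovery and open points at 24 h, ordered by the median difference of effects. The stress, ER and MAP kinase lists have open points right of 0 and filled points near or left of 0, the cholesterol, interferon and mitosis lists have open points left of 0, and the ribosomal, respiratory chain and proteasome lists have filled points right of open ones.

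Other effects were still called after recovery. Called in the same direction at both times, with no call for the difference, were 196 genes higher and 224 lower. A missing call for the difference does not show that an effect kept its size. MT2A, a metal-binding metallothionein (chr16:56608584-56609497, RefSeq GRCh38.p14), stood at 135, 592 and 299 CPM in 50 µM recovery, 28.3, 36.4 and 26.1 in vehicle recovery, 250, 298 and 245 in 50 µM 24 h and 30.6, 48.3 and 39.5 in vehicle 24 h libraries. Both PFOS groups lay above both vehicle groups. It was higher by 3.48 ± 0.36 log2 after recovery and by 2.70 ± 0.35 at 24 h, and the difference of 0.78 (95% interval -0.22 to 1.78) was not called. Without 50 µM recovery replicate 1 it was called at 1.17, and without replicate 2 it was 0.11. MT1E was the other tested metallothionein, with 3.32 ± 0.55 after recovery and 3.53 ± 0.61 at 24 h, and the reads of these near-copies may be shared. MMP1, interstitial collagenase, had 9.30, 18.2 and 9.72 CPM in 50 µM recovery, 0.766, 0 and 1.37 in vehicle recovery, 135, 146 and 139 in 50 µM 24 h and 2.35, 1.80 and 1.18 in vehicle 24 h libraries. Its PFOS libraries lay above vehicle at both times. MMP1 did not stay at its exposed level, with 9.30–18.2 CPM in 50 µM recovery against 135–146 in 50 µM 24 h libraries. With 4 counts over the vehicle recovery libraries, its difference of -2.03 had a 95% interval of -4.25 to 0.19 and was not called, but it was called at -2.97 without vehicle recovery replicate 2. ANGPTL4, a lipoprotein lipase inhibitor induced by PPAR factors, did not stay at its exposed level either. It had 7 counts in 50 µM recovery, 1 in vehicle recovery, 144 in 50 µM 24 h and 0 in vehicle 24 h libraries, and was lower in 50 µM recovery than in 50 µM 24 h by -3.79 ± 0.52 log2, adjusted p = 3.73e-05. Its difference of effects rests on 1 vehicle count, so its fitted value of -5.40 (adjusted p = 0.151) is no bound, and it was called in 3 of 24 alternatives.

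ABCB1, the drug efflux pump P-glycoprotein (chr7:87503017-87713295, RefSeq GRCh38.p14), fell at both times. It had 16.3, 15.5 and 20.8 CPM in 50 µM recovery, 52.9, 49.8 and 59.5 in vehicle recovery, 19.7, 19.5 and 20.9 in 50 µM 24 h and 60.0, 54.4 and 50.9 in vehicle 24 h libraries. Each PFOS library lay under each vehicle library. The log2 fold change was -1.64 ± 0.21 after recovery and -1.43 ± 0.19 at 24 h, and the 95% interval of the difference was -0.80 to 0.39. Of 13 tested collagens, 9 were lower after recovery and 8 at 24 h, with none higher. The difference was called for 1, COL8A1, a short-chain collagen, at 1.03 ± 0.26, which is not above the 11.6% of all genes called positive. The list's median difference of -0.09 changed sign in 7 of 24 alternatives. COL4A2, of the basement membrane, had 122, 19.1 and 82.0 CPM in 50 µM recovery, 421, 342 and 242 in vehicle recovery, 160, 161 and 172 in 50 µM 24 h and 434, 291 and 325 in vehicle 24 h libraries. Its difference of -1.12 was not called, adjusted p = 0.0946, was called at -1.76 without 50 µM recovery replicate 1, and was -0.63 without replicate 2.

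Further genes were higher after recovery by more than at 24 h, and here the 3 recovery libraries differed among themselves. Of 70 tested cytosolic ribosomal protein genes, 69 rose after recovery and 8 at 24 h, with none fallen, and the list's median log2 fold change was 2.27 after recovery and 0.44 at 24 h. A positive difference was called for 63, with a median of 1.80, and for 54 with a median of 1.26 without 50 µM recovery replicate 2. The list's median in a single 50 µM recovery library, against the mean of vehicle recovery, was 0.99, 3.02 and 2.10 log2 in replicates 1, 2 and 3. Nuclear-encoded respiratory chain subunits gave 31 of 40 higher after recovery, with a median log2 fold change of 1.81 after recovery and -0.05 at 24 h. Their difference was called positive for 28, and for 23 without 50 µM recovery replicate 2, and their single-library medians were 0.59, 2.43 and 1.77. Proteasome subunits gave 23 of 29 higher and 1 lower after recovery, against 2 lower at 24 h, with 21 positive differences and 1 negative. Their positive count was 12 in a fit to the 12 libraries alone and ran from 14, without 50 µM 24 h replicate 3 or vehicle 24 h replicate 3, to 24, without 50 µM recovery replicate 1. The negative call was kept without 50 µM recovery replicate 1, vehicle recovery replicate 2 or 50 µM 24 h replicate 2 and lost without each of the other libraries. The same 3 libraries held the raised ribosomal protein share given above, and the part of that share in these results was not tested beyond the alternatives given.

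RPS29, a short protein of the small ribosomal subunit, stood at 79.1, 514 and 215 CPM in 50 µM recovery, 26.8, 37.5 and 31.1 in vehicle recovery, 19.7, 28.1 and 35.2 in 50 µM 24 h and 19.99, 24.9 and 29.2 in vehicle 24 h libraries. The recovery libraries under PFOS lay above the other 9 and covered a wide range. Its difference was 2.91 ± 0.62, adjusted p = 0.0041. S100A6, a calcium-binding protein (chr1:153534599-153535991, RefSeq GRCh38.p14), was also higher in the recovery libraries under PFOS, with 183, 966 and 478 CPM in 50 µM recovery, 55.9, 76.3 and 49.0 in vehicle recovery, 52.8, 77.9 and 61.2 in 50 µM 24 h and 60.0, 50.4 and 60.4 in vehicle 24 h libraries, and a difference of 2.99 ± 0.53. COX7A2 and UQCR10, small subunits of respiratory complexes, had differences of 2.73 ± 0.47 and 2.74 ± 0.45, and PSMA2, of the proteasome core, one of 1.77 ± 0.34. HSPE1, a mitochondrial chaperone, had 29.1, 152 and 65.3 CPM in 50 µM recovery and 6.63–17.6 CPM in the other 9 libraries. Of 12 small nucleolar RNA host genes, 11 were higher after recovery and 6 at 24 h. Their difference was called for 3. It was called for 7 without 50 µM recovery replicate 1, for none with counts thinned to equal depth, and for 1 without 50 µM recovery replicate 2, vehicle recovery replicate 1, 50 µM 24 h replicate 1, 50 µM 24 h replicate 3, vehicle 24 h replicate 2 or vehicle 24 h replicate 3. Reads of ribosomal protein genes may be shared with their many processed copies.

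**Figure D4:**
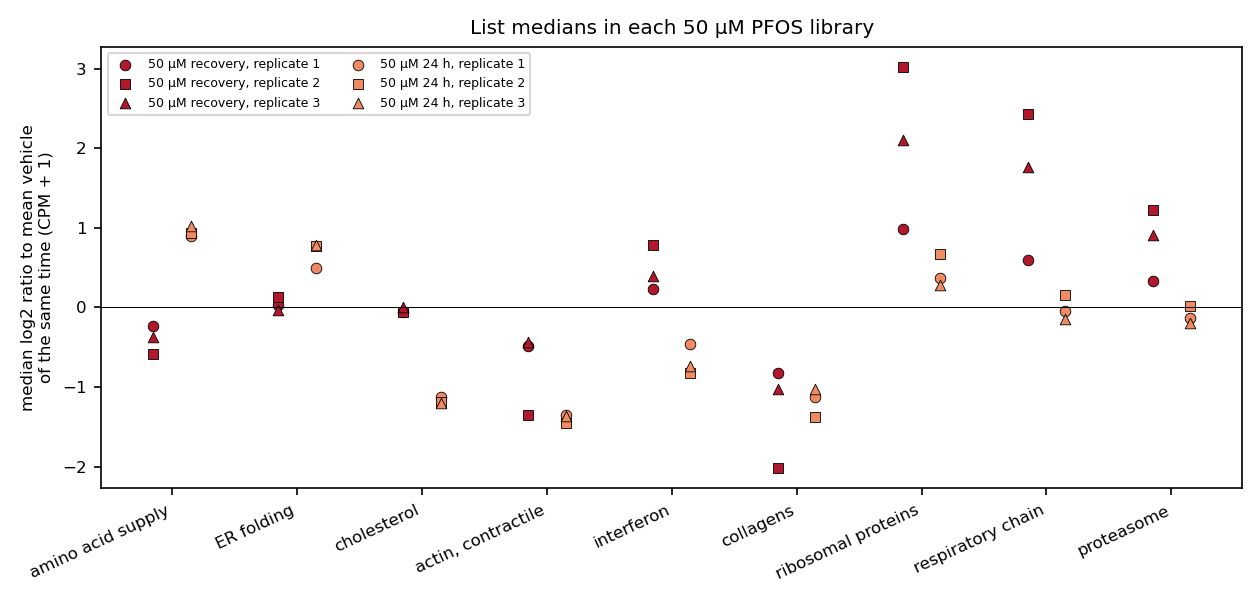
Median log2 ratio of CPM + 1 to the mean vehicle of the same time for 9 gene lists in each of the 3 recovery and 3 exposed 50 µM libraries. The amino acid, ER and cholesterol lists separate the times with the 3 libraries close together, while the ribosomal, respiratory chain and proteasome lists are lowest in replicate 1 and highest in replicate 2 of the recovery libraries.

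Gene span moved with the same results. The 772 genes that rose after recovery and not at 24 h had a median span of 11.2 kb, the 222 that fell 46.6 kb, and all genes with a span 31.9 kb, while the reversed rises and falls had 28.6 and 35.7 kb. Across 9781 genes of the same libraries, which are not independent, Spearman's rho of the log2 fold change with span was -0.31 after recovery and -0.17 at 24 h, and -0.17 for the difference. With the trend on span removed from each library, 641 of the 772 and 292 of the 322 differences were still called. Among the genes that fell after recovery and not at 24 h, KIAA0355 had 24.4, 3.64 and 11.1 CPM in 50 µM recovery, 54.4, 46.6 and 49.9 in vehicle recovery, 39.3, 40.0 and 29.6 in 50 µM 24 h and 31.8, 23.4 and 33.3 in vehicle 24 h libraries. Its difference was -2.27 ± 0.46. IGSF3, a membrane protein with immunoglobulin domains, had one of -1.56 ± 0.51, which was not called in 12 of 24 alternatives. Of the fits with 1 library left out, it was called in those without 50 µM recovery replicate 2, vehicle recovery replicate 3 or 50 µM 24 h replicate 1. FN1, fibronectin, had 10069, 2678 and 6010 CPM in 50 µM recovery, against 14184, 9986 and 12541 in vehicle recovery, and its difference of -1.30 was not called in 6 of 24 alternatives. These were the fit to the 12 libraries alone and those without 50 µM recovery replicate 3, vehicle recovery replicate 1, 50 µM 24 h replicate 3, vehicle 24 h replicate 2 or vehicle 24 h replicate 3.

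Some genes lay on opposite sides of vehicle at the 2 times. Besides FDPS, ACAT2 and IFIT2, those higher after recovery and lower at 24 h included AP1M2, a clathrin adaptor subunit, and CDKN3, a cyclin-dependent kinase phosphatase. AP1M2 had 26.7, 120 and 68.1 CPM in 50 µM recovery, 19.1, 23.3 and 19.7 in vehicle recovery, 6.21, 10.8 and 6.12 in 50 µM 24 h and 19.99, 19.1 and 27.1 in vehicle 24 h libraries. Its PFOS libraries lay above vehicle after recovery, by a narrow margin in replicate 1, and below it at 24 h, with a difference of 3.40 ± 0.55. CDKN3 was at 1.24 ± 0.25 after recovery and -0.88 ± 0.27 at 24 h. On the other side, besides SLC6A9, STC2, LOX and SLC38A1, the unconventional myosin MYO7B was at -2.20 ± 0.52 and 1.11 ± 0.34 and KANTR at -1.57 ± 0.36 and 1.29 ± 0.30.

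In the remaining lists calls went both ways or rested on single libraries, and over all genes 11.6% were called positive and 7.42% negative. The difference was called positive for 9 and negative for 2 of 25 translation factors. The positive count was 2 without 50 µM recovery replicate 2, vehicle 24 h replicate 2 or vehicle 24 h replicate 3, and 4 without vehicle recovery replicate 1, 50 µM 24 h replicate 1 or 50 µM 24 h replicate 3. In a fit to the 12 libraries alone it was 1, and the negative count ran from 0 to 3 over the libraries left out in turn. Glycolysis and hypoxia genes gave 4 positive and 6 negative calls of 26, with 3 negative in the fit to the 12 libraries and 1 positive with the span trend removed. Cytosolic heat shock proteins gave 3 of each among 16. Their negative count was 0 without vehicle recovery replicate 2 and 1 without 50 µM 24 h replicate 2 or vehicle 24 h replicate 2, and the fit to the 12 libraries left 1 positive call and no negative one.

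Of 18 p53 targets the difference was called positive for 2 and negative for 2, among them CDKN1A, the cell-cycle inhibitor p21, at -0.93 ± 0.25, which lost its call without vehicle 24 h replicate 2. The positive count was 0 without 50 µM recovery replicate 2, vehicle recovery replicate 1, 50 µM 24 h replicate 1 or vehicle 24 h replicate 3, and the negative count was 4 without 50 µM recovery replicate 1. Of 14 immediate early genes 1 was called, FOSL1, and it lost its call in 15 of 24 alternatives. Of the fits with 1 library left out, it was called in those without 50 µM recovery replicate 1, 50 µM recovery replicate 3 or vehicle recovery replicate 3. Histone acetylation writers, erasers and readers gave 1 positive and 2 negative calls of 21. These were 4 and 6 without 50 µM recovery replicate 1, and without replicate 2 they were 0 and 1. Histones gave 2 positive and 1 negative call of 11, with 4 positive without 50 µM recovery replicate 1 or vehicle recovery replicate 2, 3 without 50 µM 24 h replicate 2 and 1 without each of the others. The PPAR and fatty acid oxidation list gave 1 positive and 1 negative call of 14, with 4 positive without 50 µM recovery replicate 1 and 0 without vehicle 24 h replicate 3.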

How the data were processed

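Poly(A)-selected RNA from TRIzol extracts of HMC3 cells was made into libraries by the Smart-seq2 method and read from both ends, per the labels' protocols. The authors deposited one table of raw counts per gene symbol for the 18 RNA libraries, and all 18 columns were matched to a library by name, with 0 columns left out. Reads were trimmed with Trimmomatic and aligned with STAR to GRCh38 (hg38), per the submitters' processing notes. The labels and headers name no tool version, read counter, annotation or strand setting (not given in the sources used here). Overlapping genes, genes on opposite strands and near-identical copies may thus have had their counts split, merged or dropped. Smart-seq2 reads carry no molecular identifiers here, so errors from counting cover counting alone. The H3K27ac CUT&Tag libraries were not analysed here.

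Counts were filtered with edgeR 4.0.16 (filterByExpr, minimum count 10), which kept 9847 of 25344 symbols with 99.2% of the counts. They were scaled by TMM and fitted by the quasi-likelihood method in R 4.3.3 with 1 mean for each of the 6 groups of RNA libraries, so that all 18 share one estimate of spread (median biological coefficient of variation 17.2%). P-values are two-sided and Benjamini-Hochberg adjusted over all 9847 genes, with a threshold of 0.05. CPM are TMM-scaled, and ± beside a log2 value is its SE. The procedure was also run on simulated data, but no outcome is reported here, so that run gives no measure of false calls in these libraries. Alternatives used DESeq2 1.42.0, limma 3.58.1, other scaling and filters, thinned counts, removal of the trend on gene span and each of the 12 libraries left out in turn.

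The comparison, the 32 gene lists and the markers were chosen with earlier results of these data known. Genes named by rule, apart from the list members, had at least 10 CPM on average in 1 of the 4 groups. They also had a difference of one sign in all 12 fits that leave out a library. Clone-based, LOC, LINC, antisense and other non-coding locus names were left out, as were genes of a RefSeq type other than protein-coding. The genes so named were first the 12 most positive and 12 most negative called differences. Up to 6 genes each way by the effect after recovery came from those with both effects called one way and no call for the difference. Up to 6 each way, ranked alike, came from those called after recovery and for the difference but not at 24 h. Up to 6 each way came from those on opposite sides of vehicle. Up to 4 members of each list by adjusted p were added without any of these conditions. Genes named outside that rule were chosen after their values were seen. Promoters are RefSeq GRCh38.p14 sequence, of which those of TRIB3, SLC6A9, HMGCS1 and OAS1 were picked by rule and held no match, and those printed were picked for their matches. Some genes of the lists and markers are counted but not reported by name here.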

Additional observations from a re-analysis of the deposited data

Results flagged for a closer look

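The effect of 50 µM PFOS differed between recovery and 24 h for 1878 genes by the test of the difference itself. Single genes are listed because their effects were called in opposite directions at the 2 times. Such genes could hardly miss a call for the difference, so that call adds no support. In all, 51 genes were higher at 24 h and lower after recovery, and 35 the other way. Without vehicle recovery replicate 1 these numbers were 25 and 21. Whether each gene listed kept both calls with a library left out is not reported here. Higher after recovery and lower at 24 h were AP1M2 (difference 3.40), FDPS (2.22), ACAT2 (2.21), IFIT2 (2.21), CDKN3 (2.12) and HN1 (2.07), and lower after recovery and higher at 24 h were SLC6A9 (-3.79), MYO7B (-3.31), KANTR (-2.86), STC2 (-2.66), LOX (-2.61) and SLC38A1 (-2.35).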

How the results depend on the processing

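The numbers of genes called depended on the processing. Counts are given for the difference, the effect after recovery and the effect at 24 h, which were 1878, 2800 and 1848. Quality weights in limma-voom gave 2869, 3229 and 3246, and a voom trend per group, chosen after seeing the data, gave 1418, 1420 and 3036. A fit to the 12 libraries alone gave 1022, 2035 and 1311, and counts thinned to equal depth 1030, 1963 and 1143. Leaving out each library in turn gave 1188 to 3314, 1600 to 4074 and 1139 to 2664. DESeq2 called 1959, 2836 and 1882, and RLE scaling, upper-quartile scaling, both filters, the span correction and scaling without ribosomal protein genes also stayed within 1.5 times. Upper-quartile scaling put 48.6% of called differences higher, against 61.1%. The causes were not tested, apart from fewer libraries or reads in the fit.

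Same-numbered libraries did not all deviate together: over 18 pairs their correlations ran from -0.250 to 0.394, and 6 were over 0.1. The replicate 2 libraries of 50 µM recovery, vehicle recovery and 50 µM 24 h correlated with each other at 0.184 to 0.292 and had the highest ribosomal protein share of their groups, at 7.53, 2.02 and 2.42%. A replicate block called 1661, 2684 and 1719 genes. Among the genes named by rule, the difference of MT2A reversed sign without the span trend (-0.063). That of MT1E did so without 50 µM recovery replicates 1 (0.18) and 3 (0.001) and vehicle recovery replicate 2 (0.66). It also did so without vehicle 24 h replicates 1 (0.001) and 3 (0.10), and neither gene was called in these fits. The MT1E difference ran from -1.29 to 0.66 over the libraries left out. Apart from list members, genes named by rule were picked for one sign over those fits, so few reversals were built in. MKI67, named outside the rule at -0.02, was positive without 50 µM recovery replicates 2 (0.14) and 3 (0.06) and vehicle recovery replicate 2 (0.03). It was also positive without 50 µM 24 h replicate 1 (0.17) and vehicle 24 h replicate 3 (0.01). At 755905 to 3982818 counts a library, differences in genes of a few counts, such as OAS1, NDRG1, ANGPTL4 and MMP1, carry wide errors.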
